A study of Mus musculus with 20 samples.

Results

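Cytokine signalling through Janus kinases and STAT proteins was followed at the level of mRNA in 9 genes of cultured mouse dorsal root ganglion (DRG) neurons. These were the inhibitors *Socs1*, *Socs2*, *Socs3*, *Socs5* and *Socs7*, the transcription factors *Stat2*, *Stat3* and *Stat5b*, and the shared receptor chain *Il6st*. The genes were taken by name, as every probe other than a control whose gene name in the later of the array annotations is one of these. They make up 9 of the 30222 gene names on the array and are read by 14 probes on 32 spots. All 9 passed the filter on dim and non-uniform spots, through 24 of the 32 spots, and were tested among 10355 genes.

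Total RNA of DRG cultures from NIH Swiss mouse embryos of age E13.5 was labelled with Cy3 or Cy5, and 2 samples of the same condition were hybridized together to each of 10 arrays. The 5 conditions of 4 samples each were neurons that were not stimulated, neurons made to fire 18 action potentials each 1 min for 2 hr or 5 hr (18/1), and neurons made to fire 90 each 5 min for as long (90/5), by biphasic pulses of 6 V and 0.2 ms. All cultures, the unstimulated ones included, had been kept overnight without nerve growth factor and serum, and had earlier received fluorodeoxyuridine against dividing non-neuronal cells. Per the methods each condition came from 5 pooled cultures, so p-values measure the spread between these samples only. The labels call the cells DRG neurons while the growth protocol speaks of spinal cord. All 10 sensory neuron markers, among them *Prph* and *Pou4f1*, lay well above background in all 20 samples, whereas of 4 spinal motor neuron markers only *Isl2*, which sensory neurons also use, did so.

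Some SOCS proteins, SOCS3 among them, are short-lived inhibitors that STAT proteins switch on and that then shut the same pathway down. Ligands of the interleukin-6 family bring together receptors with gp130, the product of *Il6st*, the attached Janus kinases phosphorylate STAT3, and STAT3 enters the nucleus and activates *Socs3*, among other genes. STAT2 works mainly in the response to type I interferons, and STAT5B in responses to growth hormone and prolactin. In sensory neurons STAT3 is known for its part in the response to axon injury, and SOCS3 for restraining axon regrowth.

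Arrays lay on 3 slides, and condition and slide overlap. Slide 1 held the unstimulated and the 18/1 2 hr samples, slide 2 the 18/1 5 hr and the 90/5 2 hr samples, and slide 3 the 90/5 5 hr samples. On slide 2 the scanner software marked 45 to 14642 spots per sample as non-uniform, against 6 to 36 on slide 1 and 37 to 85 on slide 3, and 840 to 2800 as saturated, against 0 to 486 and 0. The median spot was 2.27 to 2.94 times its background on the first slide, 3.64 to 10.4 times on the second and 2.66 to 4.91 times on the last. Both conditions of a comparison shared a slide in just 2 cases, unstimulated with 18/1 2 hr and 18/1 5 hr with 90/5 2 hr. In all others slide and condition cannot be told apart. The log2 of the summed signals of 6 fibroblast markers was 16.03 to 16.22 at 18/1 5 hr against 14.08 to 15.45 in unstimulated neurons, and 14.37 to 16.31 in the other stimulated samples, with 4 of the 6 above the filter. That of 7 Schwann cell markers, of which *Erbb3* was well above background in no sample, was 15.12 to 16.40 at 18/1 5 hr and 16.14 to 16.28 in unstimulated neurons. That of 6 macrophage markers was 11.44 to 12.03 and 11.48 to 11.82. That of the 10 sensory neuron markers was 18.31 to 18.87 at 18/1 5 hr, 18.50 to 18.77 at 90/5 2 hr and 18.63 to 18.77 in unstimulated neurons. The log2 of the summed signals of the 4 spinal motor neuron markers, of which *Mnx1*, *Chat* and *Lhx3* were well above background in 2 to 7 of 20 samples, was 12.83 to 13.24, 12.15 to 13.03 and 11.78 to 12.13 in the same order, and the mean of *Isl2* was 12.95, 12.61 and 11.89. The part of these cells in the results was not tested, and in cultures of mixed cells fewer cells of a type and less RNA per cell cannot be told apart.

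Replicate 3 of 90/5 5 hr stood apart. Over the 10355 genes its mean correlation with the other 3 samples of its condition was 0.963, against 0.967 to 0.992 for the other libraries, its median spot signal was the lowest at 77.2, and in 7 of the 9 genes it lay farthest from the rest of its condition, as other samples did in 0 to 4. Without it *Socs3* was still called at 90/5 5 hr, at 2.04 (adjusted p = 0.0119, limma), and no other gene of the 9 was, with differences of -0.61 to 0.56. Between the patterns at 5 hr *Socs2* was then called, 0.84 higher with 90/5 (adjusted p = 0.0119, limma).

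Promoter sequences of RefSeq (build GRCm38.p6), from 250 bases before to 50 bases after an annotated start, were at hand for 6 of the 9 genes. They were searched on both strands for TTCNNNGAA, the letters that STAT dimers are known to prefer, for a pair of TTTC with 2 bases between them, the core of the interferon response element that complexes with STAT2 bind, for TTC and GAA with 4 bases between them, a STAT motif with a longer gap, and for TGACGTCA, the cAMP response element. The stretches that held the first or the second are shown, to let the letters be read beside the values of these genes. Capitals mark the motif.
Socs3: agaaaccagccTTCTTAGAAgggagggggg
Stat2: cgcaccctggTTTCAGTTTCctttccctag
Socs1: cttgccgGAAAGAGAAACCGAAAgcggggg
The *Socs3* stretch lies at chr11:117969502-117969531 on the minus strand and its motif starts 154 bases before the start that the promoter entry uses, which lies inside the gene as annotated (chr11:117966079-117970336). The letters TTCNNNGAA occur in 8.3% of the 32851 promoters of the table, and *Socs3* was the only one of the 6 genes to hold them. The *Stat2* stretch is chr10:128270266-128270295 on the plus strand, with its motif 222 bases upstream. The *Socs1* stretch is chr16:10785597-10785626 on the minus strand, read from the opposite strand as 2 overlapping copies that begin 83 bases upstream. The TTTC pair was found in 3.44% of all promoters. TTC and GAA with the gap of 4, in 6.95% of all promoters, was found in that of *Stat2*, where it begins 210 bases upstream, and TGACGTCA, in 1.79%, in none of the 6. A match describes the letters only.

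*Socs3* was higher than in unstimulated neurons after stimulation with either pattern, by 1.36 to 2.33 on the log2 scale, and was the only one of the 9 genes with all 16 stimulated samples above all 4 unstimulated ones. This holds for 0.299% of the genes tested, and samples above all unstimulated ones in a single condition were found for 2.98% and 19.7% of genes with 18/1 stimulation, the earlier time first, and for 11.5% and 5.3% with 90/5. The levels were 8.30, 8.78, 8.87 and 9.53 in unstimulated neurons, as normalized log2 signals. They were 10.11, 10.41, 10.39 and 10.01 at 18/1 2 hr, and 10.83, 11.18, 11.40 and 11.37 at 18/1 5 hr. With 90/5 stimulation they were 10.52, 10.703, 11.36 and 11.03 at 2 hr, and 10.50, 10.95, 11.63 and 11.24 at 5 hr. The highest unstimulated sample thus lay below the lowest stimulated one, while the stimulated conditions other than 18/1 2 hr overlapped each other. On the array *Socs3* is read by 1 probe, for the transcript NM_007707, on 1 spot at chr11:117827480-117827539 (mm9) that was well above background and not saturated in all 20 samples.

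**Figure D1:**
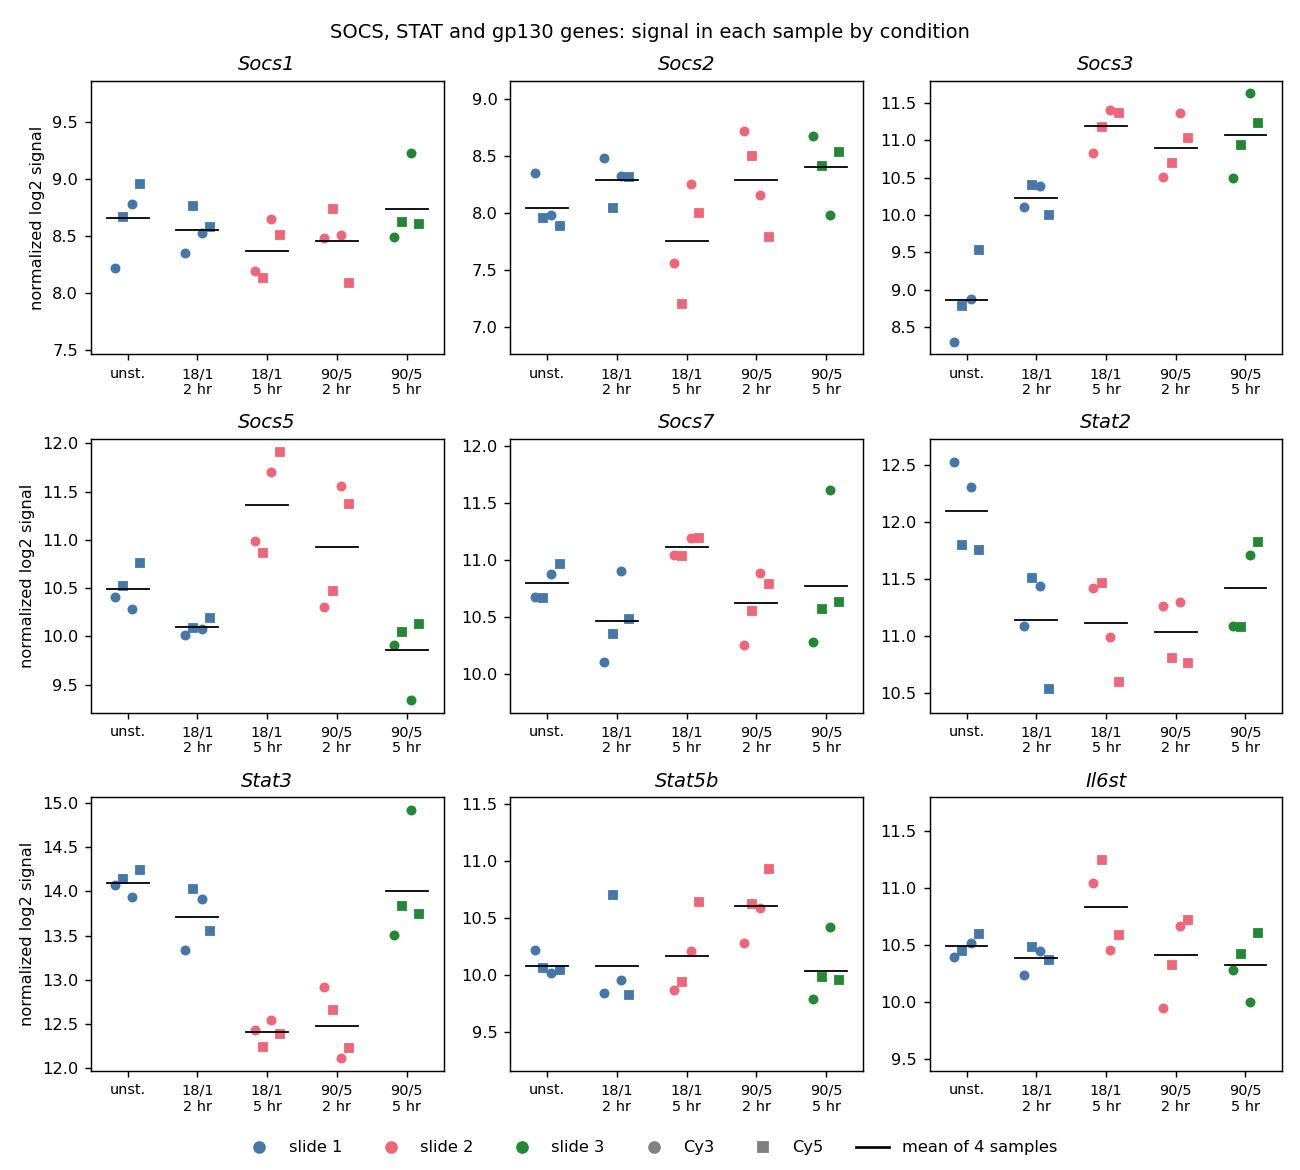
Normalized log2 signal of the 9 genes in each of the 20 samples, by condition, with the slide as colour, the dye as symbol and the mean of 4 samples as a line; each panel has its own axis, since levels of different probes are not comparable. Every stimulated *Socs3* sample lies above the highest unstimulated one at 9.53, and *Stat3* is low in the 8 samples of slide 2.

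At 18/1 5 hr *Socs3* was 5.01-fold higher than in unstimulated neurons, a log2 difference of 2.33 (standard error 0.34, 4 samples each, adjusted p = 3.18e-05, limma). The difference was 2.03 at 90/5 2 hr (standard error 0.34, adjusted p = 0.0008, limma) and 2.21 at 90/5 5 hr (standard error 0.34, adjusted p = 0.00464, limma). The value for 18/1 2 hr was 1.36, with a 95% interval of 0.65 to 2.07, and did not pass (adjusted p = 0.99995, limma), where 2 of 10355 genes did. *Socs3* had rank 6 of all genes by p there, with a single p of 0.00065 in limma. In a fit of the slide 1 samples alone the same difference had an adjusted p of 0.045, and with the replicate number as a block one of 0.0681. Without array 1 of the unstimulated samples the adjusted p rose to 0.0617 at 90/5 2 hr and 0.652 at 90/5 5 hr, and without array 10 of the 90/5 5 hr samples it was 0.29 at 90/5 5 hr. Testing all spots without a filter (adjusted p = 0.114) or the means of arrays (adjusted p = 0.159) also ended the call at 90/5 5 hr, as did the methods' t-test after adjustment there (0.255) and at 90/5 2 hr (0.0897), while no left-out sample or array ended that at 18/1 5 hr. *Socs3*, *Stat2*, *Stat3*, *Socs5*, *Stat5b* and *Il6st* are among transcripts that the study selected on these samples, so their direction is not independent evidence.

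**Figure D2:**
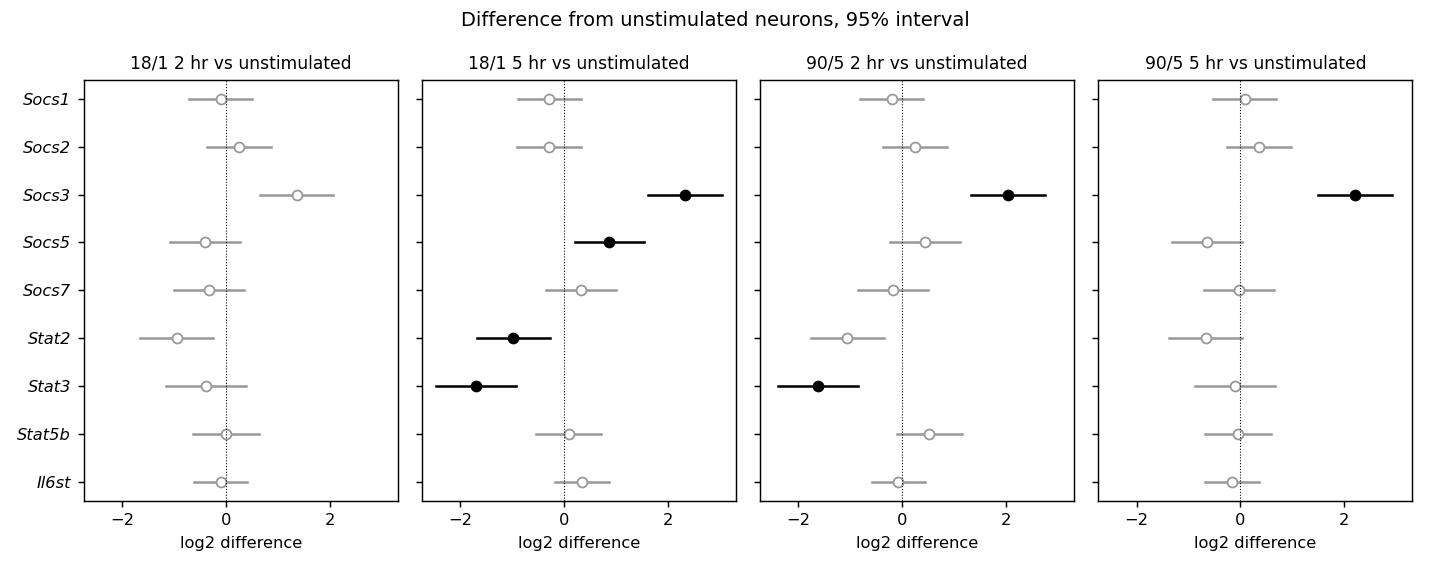
Log2 difference from unstimulated neurons with its 95% interval for the 9 genes in each stimulated condition; filled black points have an adjusted p under 0.05 and open grey points do not. *Socs3* is to the right of 0 in all 4 panels, from 1.36 to 2.33, and *Stat3* is far to the left at 18/1 5 hr and 90/5 2 hr only.

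Of the 9 genes, 0 were called at 18/1 2 hr, where 0.0193% of all genes were, and 2 had a single p under 0.05, *Socs3* and *Stat2*. At 18/1 5 hr 4 were called, *Socs3* and *Socs5* higher and *Stat2* and *Stat3* lower, beside 44.6% of all genes (14.9% higher and 29.7% lower). At 90/5 2 hr 2 were called, *Socs3* higher and *Stat3* lower, beside 7.03% of all genes (3.56% higher and 3.47% lower). At 90/5 5 hr *Socs3* alone was called, higher, beside 0.0676% of all genes (0.0483% higher). *Socs5* was called lower as well when slide 2 was left out, beside 2.63% of all genes, or the replicate number was a block, beside 3.65%. When 1 sample or array was left out, the share of all genes called ran from 25.0% (without array 1) to 54.7% (without array 6) at 18/1 5 hr, from 0.84% (without array 2) to 27.0% (without array 7) at 90/5 2 hr, and from 0.0193% to 0.261% at 90/5 5 hr. The share at 18/1 5 hr is that of the genes at large, and the median of the 9 there was 0.08 against -0.23 over all genes. In the other 3 conditions the medians of the 9 were -0.11, -0.08 and -0.04, and those of all genes lay between -0.08 and 0. Centring each sample on its median alone moved the median of all genes at 18/1 5 hr to -0.81, and the share of higher genes among those called from 33.5% to 8.72%.

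*Stat3*, which encodes the main transcription factor downstream of gp130, was lower at 18/1 5 hr and at 90/5 2 hr, the 2 conditions of slide 2. Its levels were 14.08, 14.14, 13.94 and 14.25 in unstimulated neurons and 13.34, 14.03, 13.92 and 13.55 at 18/1 2 hr. They were 12.44, 12.24, 12.55 and 12.39 at 18/1 5 hr and 12.92, 12.66, 12.11 and 12.24 at 90/5 2 hr. At 90/5 5 hr they were 13.51, 13.83, 14.92 and 13.74, so that all but replicate 3 lay below the unstimulated samples. No sample of slide 2 reached the lowest sample of slides 1 and 3. The log2 difference from unstimulated neurons was -1.69 at 18/1 5 hr, 3.24-fold lower (standard error 0.37, adjusted p = 0.0011, limma), and -1.62 at 90/5 2 hr (adjusted p = 0.0104, limma). Other settings gave -2.01 to -1.09 at 18/1 5 hr. The call at 90/5 2 hr was lost without array 1, 2 or 8, with adjusted p-values of 0.161, 0.134 and 0.122, and with the signals as the scanner software had processed them (adjusted p = 0.0532) or without the spot filter (adjusted p = 0.123). At 18/1 2 hr the difference was -0.39 (95% interval -1.16 to 0.38) and at 90/5 5 hr -0.10 (95% interval -0.87 to 0.67). That last value was -0.41 without replicate 3 (95% interval -1.03 to 0.21), -0.43 without array 10 and 0.23 without array 9.

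The *Stat3* probe, for the transcript NM_213659 at chr11:100749598-100749657 (mm9), is printed on 10 spots, which allows the same value to be read 10 times on each array. All 10 spots were lower than in unstimulated neurons at 18/1 5 hr, with log2 differences of -1.94 to -1.31, and at 90/5 2 hr, with -2.14 to -1.48, while at 90/5 5 hr 6 of the 10 were lower. The standard deviation among the 10 spots in a sample had a median of 0.33, 0.21 and 0.35 on slides 1, 2 and 3. Before normalization the *Stat3* spots of slide 2 read 3553 to 19265, and those of slide 1 read 4335 to 12836. The median of all spots was 136 to 491 on slide 2, against 87.1 to 109 on slide 1. The median spot was thus brighter on slide 2 while the ranges of the *Stat3* spots overlapped, so that the lower *Stat3* value is one relative to the other spots of those arrays. The part of the slide in it was not tested. A second *Stat3* probe, for the transcript NM_011486, did not pass the filter: it was well above background in 16 of 20 samples and non-uniform in 2. Without the filter it gave -0.45 at 18/1 5 hr and -0.21 at 90/5 2 hr (adjusted p = 0.427 and 0.871, limma), each with a standard error of 0.39. The probe with 10 spots gave -1.69 and -1.62 in that fit (adjusted p = 0.0218 and 0.131, limma). In unstimulated neurons the mean of the second probe was 7.60, against 14.10 for the first.

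**Figure D3:**
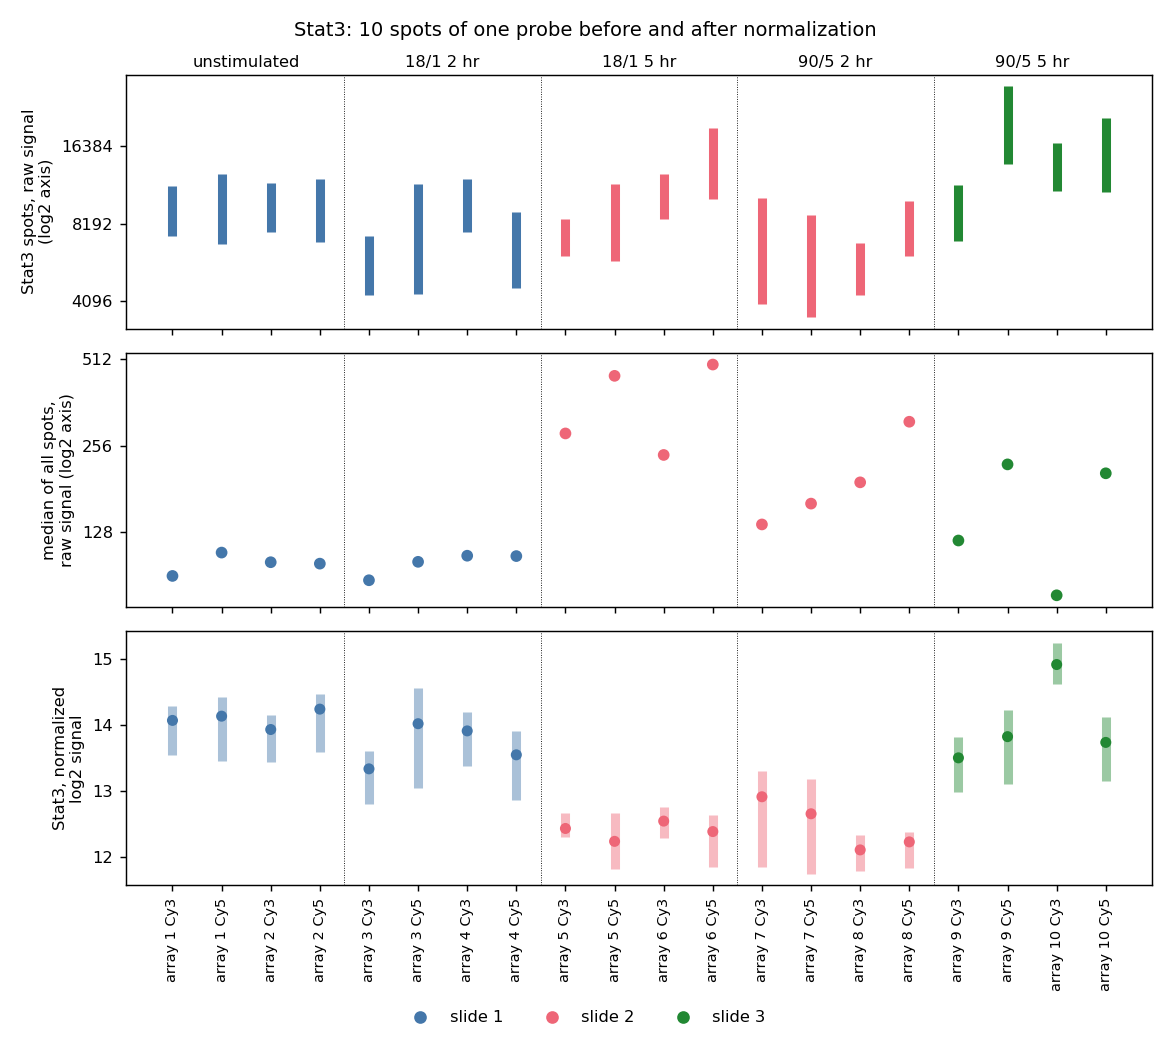
*Stat3* probe with 10 spots in each sample: range of the raw spot signals (top, log2 axis), median raw signal of all spots (middle, log2 axis), and range over the spots and mean after normalization (bottom, log2 signal), with the slide as colour. Raw *Stat3* signals of slide 2, 3553 to 19265, lie around those of slide 1 while the median spot is brighter, and the normalized values of slide 2 are the lowest.

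*Stat2*, which encodes a transcription factor of the interferon response, was below the unstimulated level in all 4 stimulated conditions, by 0.67 to 1.06 on the log2 scale. Its levels were 12.52, 11.80, 12.31 and 11.76 in unstimulated neurons, and 11.09, 11.51, 11.44 and 10.53 at 18/1 2 hr. They were 11.42, 11.46, 10.99 and 10.59 at 18/1 5 hr, and 11.26, 10.81, 11.30 and 10.77 at 90/5 2 hr. At 90/5 5 hr they were 11.09, 11.08, 11.71 and 11.82. In the first 3 of these conditions the samples did not overlap the unstimulated ones, and at 90/5 5 hr they did. The difference was called at 18/1 5 hr only, where it was -0.98 (standard error 0.34, adjusted p = 0.0231, limma), a call that was lost without array 1, 2 or 6, with adjusted p-values of 0.134, 0.0941 and 0.117, and without the spot filter (adjusted p = 0.112), with the filter within a condition (0.0505) and by the methods' t-test after adjustment (0.0575). Over the other settings the 18/1 5 hr value ran from -1.66 to -0.97. The 90/5 2 hr value was -1.06 (adjusted p = 0.0601, limma), and leaving out array 5, 6 or 7 brought that adjusted p to 0.0146, 0.0162 and 0.0497. On slide 1, 18/1 2 hr differed from unstimulated neurons by -0.95 (95% interval -1.65 to -0.25), with an adjusted p of 0.114 in the fit of that slide alone. Samples below all unstimulated ones without overlap were found for 3.16% of all genes at 18/1 2 hr, 34.1% at 18/1 5 hr and 14.8% at 90/5 2 hr. Every *Stat2* value comes from 1 spot.

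*Socs5*, an inhibitor linked to signalling from the interleukin-4 and the epidermal growth factor receptors, was higher at 18/1 5 hr, where it read 10.99, 10.86, 11.70 and 11.92, than in unstimulated neurons with 10.41, 10.52, 10.29 and 10.76. At 90/5 2 hr it read 10.30, 10.47, 11.56 and 11.37. It read 10.02, 10.09, 10.08 and 10.19 at 18/1 2 hr and 9.91, 10.04, 9.34 and 10.13 at 90/5 5 hr, so that both of these conditions lay below all unstimulated samples, as did 3.16% and 6.41% of all genes. The 2 arrays of a condition differed by 0.88 at 18/1 5 hr and by 1.08 at 90/5 2 hr, against 0.06 to 0.24 in the other conditions. The difference from unstimulated neurons at 18/1 5 hr was 0.87 (standard error 0.32, adjusted p = 0.0333, limma), fell to 0.43 without array 6 (adjusted p = 0.285), and was also lost on leaving out any array of slide 1, with adjusted p-values of 0.0568 to 0.159. Centring each sample on its median alone gave 0.10 (adjusted p = 0.841), and the call was also lost without the spot filter (adjusted p = 0.0960), with the filter within a condition (0.0545), with means of arrays (0.0912) and by the methods' t-test before (0.0715) and after adjustment (0.124). The other differences were -0.40 at 18/1 2 hr, 0.43 at 90/5 2 hr and -0.64 at 90/5 5 hr, the last with a 95% interval of -1.31 to 0.03, and none was called. The value at 90/5 5 hr did pass when slide 2 was left out (adjusted p = 0.0398, limma) and with the replicate number as a block (adjusted p = 0.0333, limma), and in both fits also without replicate 3 of 90/5 5 hr, at -0.50 and -0.51 (adjusted p = 0.0198 and 0.0387, limma). With replicate 3 kept, the 2 fits called 2.63% and 3.65% of all genes.

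The inhibitors *Socs1* and *Socs7* were not called in any comparison with unstimulated neurons. *Socs1*, which blocks Janus kinases directly and is known from interferon signalling, had condition means of 8.37 to 8.74 and differences of -0.29 to 0.08. Each of its 95% intervals lay within -0.89 and 0.68. *Socs7* had means of 10.46 to 11.12, with all 4 samples at 18/1 5 hr (11.05, 11.04, 11.20 and 11.19) just above the unstimulated range of 10.67 to 10.97. That difference was 0.32 (standard error 0.33, adjusted p = 0.444, limma). Samples above all unstimulated ones were found for 19.7% of the genes tested at 18/1 5 hr.

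*Socs2*, known as the feedback inhibitor of growth hormone signalling, is read by 4 probes. Its probe with 10 spots, 7 of them above the filter, had condition means of 7.75 to 8.40 and differences from unstimulated neurons of -0.29 to 0.36, none of them called. At 18/1 5 hr the samples read 7.56 and 7.20 on array 5 and 8.25 and 8.001 on array 6. Without the filter, the 10 spots gave -0.18 at 18/1 5 hr, the other 2 probes for the same transcript NM_007706 gave 1.02 and 0.31 (standard errors 0.47 and 0.42), neither called. The fourth probe, for ENSMUST00000057750, was well above background in only 4 of 20 samples. Without the filter it gave 1.54 at 18/1 5 hr (standard error 0.36, adjusted p = 0.0054, limma), which was not counted as a call. Its means were 6.63 in unstimulated neurons and 8.17 at 18/1 5 hr. The probes of *Socs2* thus disagreed at 18/1 5 hr.

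*Stat5b*, which passes on growth hormone and prolactin signals, differed from unstimulated neurons by -0.04 to 0.08 in 3 conditions and by 0.52 at 90/5 2 hr, with no call. Its samples at 90/5 2 hr, 10.27, 10.62, 10.59 and 10.92, lay above the unstimulated ones, 10.21, 10.06, 10.01 and 10.04, as did those of 11.5% of all genes. Its second probe, for the same transcript NM_011489 and with 1 spot marked as non-uniform in 1 of 20 samples, gave 1.52 at 18/1 5 hr (standard error 0.30, adjusted p = 0.00194, limma) and 0.78 at 90/5 2 hr (adjusted p = 0.23). The probes of *Stat5b* thus disagreed at 18/1 5 hr.

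*Il6st* encodes gp130, the signalling chain that receptors for interleukin-6, leukemia inhibitory factor and related cytokines share. Its condition means were 10.33 to 10.83, and the unstimulated samples read 10.39, 10.45, 10.52 and 10.60. The differences were -0.11, 0.34, -0.08 and -0.16 in the 4 stimulated conditions, 18/1 first and the earlier time first, none was called, and every condition overlapped the unstimulated one. At 18/1 5 hr the samples of array 5 read 11.04 and 11.24 and those of array 6 read 10.45 and 10.59. The 95% interval at 18/1 5 hr ran from -0.17 to 0.85.

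Conditions were then compared with each other, in the same fit of all 20 samples. *Socs3* did not differ by a call between the patterns, with 0.68 for 90/5 over 18/1 at 2 hr (95% interval -0.03 to 1.38, adjusted p = 0.278, limma) and -0.12 at 5 hr (95% interval -0.83 to 0.59). It was 0.97 higher at 5 hr than at 2 hr of 18/1 (standard error 0.34, adjusted p = 0.0261, limma), but by 0.19 when samples were centred on their medians alone (adjusted p = 0.663). That call was also lost without array 3, 4 or 6, with adjusted p-values of 0.116, 0.124 and 0.0840, without replicate 4 of 18/1 2 hr (0.0688) or of 90/5 5 hr (0.0551), and with the scanner's processed signals (0.0709), the filter within a condition (0.0523) or no spot filter (0.109). Between the times of 90/5 *Socs3* differed by 0.17 (95% interval -0.53 to 0.88). On the same slide, 90/5 2 hr and 18/1 5 hr differed by -0.29 (95% interval -0.999 to 0.416). The conditions off slide 2, 90/5 5 hr and 18/1 2 hr, differed by 0.85 (95% interval 0.14 to 1.56, adjusted p = 0.999997, limma), where 4 of 10355 genes were called. A fit that left slide 2 out gave the same difference an adjusted p of 0.152 (limma).

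*Stat3* and *Socs5* had called differences in 3 of the 4 direct comparisons of a condition on slide 2 with one on another slide. In the remaining one, 90/5 against 18/1 at 2 hr, *Stat3* differed by -1.23 (adjusted p = 0.0581, limma) and *Socs5* by 0.83 (adjusted p = 0.150, limma), neither called. *Stat3* was lower at 5 hr than at 2 hr of 18/1 by -1.30 (standard error 0.37, adjusted p = 0.00742, limma), and higher at 5 hr than at 2 hr of 90/5 by 1.52 (adjusted p = 0.012, limma). The 90/5 pattern exceeded 18/1 by 1.60 after 5 hr (adjusted p = 0.00166, limma). *Socs5* rose by 1.27 from 2 hr to 5 hr of 18/1 (adjusted p = 0.00354, limma), fell by 1.07 from 2 hr to 5 hr of 90/5 (adjusted p = 0.0419, limma), and at 5 hr was lower with 90/5 by -1.51 (standard error 0.32, adjusted p = 0.00086, limma). The fall of *Socs5* over 90/5 was lost in 20 of 30 fits that left out a sample or an array, and under 9 of 15 other settings. Without array 8 it was -0.53 (adjusted p = 0.562). Centring on medians alone brought the rise of *Socs5* over 18/1 to 0.52 (adjusted p = 0.268) and its difference between patterns at 5 hr to -0.62 (adjusted p = 0.175). The methods' t-test after adjustment also ended that rise (0.0869) and that difference (0.0783). The rise of *Stat3* over 90/5 was lost without array 8 or 10 (adjusted p = 0.138 and 0.118), with the processed signals (0.0620), no spot filter (0.122) or the compared conditions alone (0.0689), as by the methods' t-test, and its fall over 18/1 without array 4 (0.0705), with the processed signals (0.117) or no spot filter (0.0690). Its difference between patterns at 5 hr was not called by the methods' t-test, before or after adjustment, and ran from 1.02 to 2.12 over the other settings. The 2 conditions of slide 2 differed by 0.08 for *Stat3* (95% interval -0.69 to 0.85) and by -0.44 for *Socs5* (95% interval -1.12 to 0.23), and 90/5 5 hr and 18/1 2 hr, both off slide 2, by 0.29 and -0.24, all 4 without a call.

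**Figure D4:**
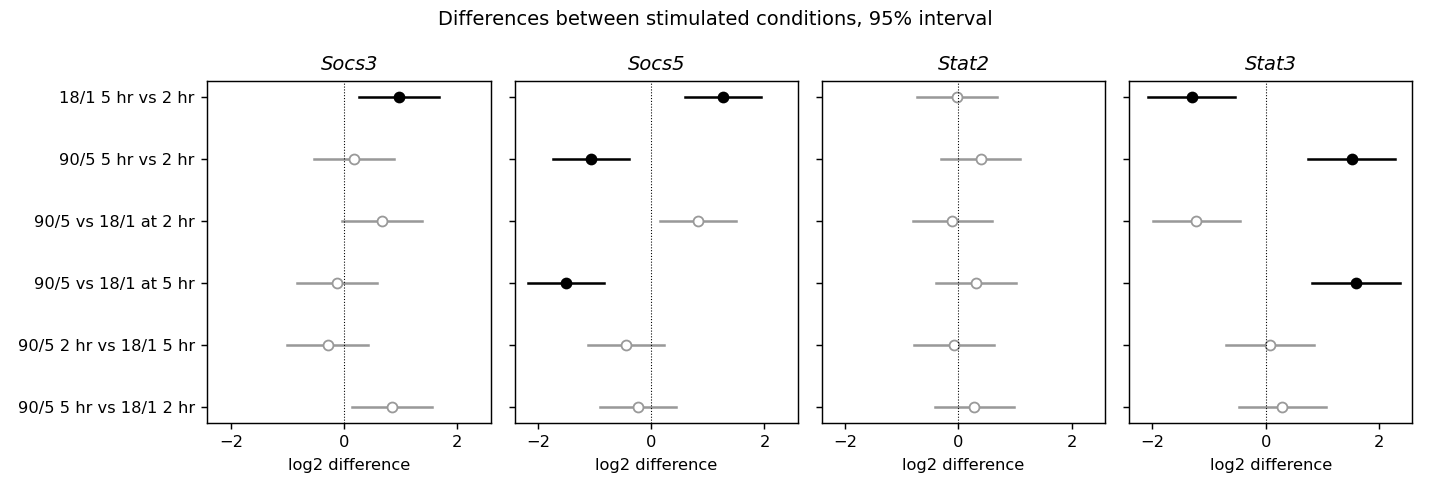
Log2 difference with its 95% interval between stimulated conditions for the 4 genes called in any comparison; filled black points have an adjusted p under 0.05. *Socs5* and *Stat3* have called differences wherever a condition of slide 2 meets one of another slide, apart from 90/5 against 18/1 at 2 hr, and *Stat2* has none.

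Over the 9 genes, the direct comparisons called 0 at 2 hr between patterns, beside 5.02% of all genes, and 2 at 5 hr between patterns, beside 45.5%. Between the times they called 3 for 18/1, beside 44.2% of all genes, and 2 for 90/5, beside 9.01%. They called 0 between the conditions of slide 2, beside 12.9%, and 0 between 90/5 5 hr and 18/1 2 hr, beside 0.0386%. The test of whether the change from 2 hr to 5 hr differs between the patterns called 2, *Stat3* at 2.82 and *Socs5* at -2.34, beside 44.9%. Leaving out 1 sample or array moved the shares of all genes to 0.715% to 24.8% between patterns at 2 hr, 2.52% to 27.4% between the times of 90/5 and 0.57% to 34.3% between the conditions of slide 2, with one end of each range set by array 7. Between the times of 18/1 the share ran from 24.9% (without array 4) to 54.9% (without array 6). Between 90/5 5 hr and 18/1 2 hr it ran from 0% to 0.164%. For *Socs3* the pattern by time value was -0.79 (95% interval -1.80 to 0.21).

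Other genes of the pathway were taken as lists of 78 genes, of which 41 passed the filter. None of the 41 was called at 18/1 2 hr or 90/5 5 hr. At 18/1 5 hr 17 were called, 7 higher and 10 lower, close to the 44.6% of all genes (14.9% higher and 29.7% lower), and at 90/5 2 hr 3 were, 2 higher and 1 lower, beside 7.03%. Over the other settings the 18/1 5 hr counts were 1 to 12 higher and 7 to 20 lower, with 1 and 20 when samples were centred on their medians alone, and without array 1 they were 2 and 5. The settings gave 0 to 4 higher and 0 to 5 lower at 90/5 2 hr, 0 to 2 of each at 90/5 5 hr, and 0 to 1 of each at 18/1 2 hr. Of 9 tested genes that STAT3 is known to activate, 4 were called higher and 1 lower at 18/1 5 hr and 2 higher at 90/5 2 hr, with medians of 0.82 and 0.08. Other settings gave 1 to 4 higher and 0 to 2 lower with medians of 0.16 to 1.11 at 18/1 5 hr, and 0 to 2 higher with medians of -0.01 to 0.53 at 90/5 2 hr, and centring on medians alone left 1 higher and 2 lower at 18/1 5 hr. Of 4 interferon target genes 2 were higher and 1 lower at 18/1 5 hr. The Janus kinase tested was higher there, 2 of 3 other STATs, 2 of 4 partners of the SOCS box and 4 of 7 phosphatases, PIAS proteins and adaptors were lower, and no gene was called at 18/1 5 hr among 10 receptor chains, 2 cytokines of the gp130 family and the 1 further SOCS relative tested. Of the receptor chains 5 were called lower, with a median of -0.88, when samples were centred on their medians alone, 0 or 1 under the other settings, and 0 to 2 on leaving out a sample or an array. That centring put the median of all genes at -0.81, and only 8.72% of all genes called were then higher.

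The largest differences among these genes at 18/1 5 hr were in *Cebpb*, *Ifit2* and *Irf1*. *Cebpb*, a transcription factor that STAT3 activates, was 1.88 higher (standard error 0.31, adjusted p = 0.000108, limma) and was also higher at 90/5 2 hr, by 1.14 (adjusted p = 0.0300, limma). *Irf1*, a transcription factor of the interferon response, was 1.52 higher (adjusted p = 0.000532, limma), and *Ifit2*, an antiviral interferon target, was lower by -1.56 (adjusted p = 0.00144, limma). At 90/5 2 hr *Lifr*, which encodes the receptor chain that pairs with gp130 for leukemia inhibitory factor, was lower by -2.03 (standard error 0.35, adjusted p = 0.00114, limma). *Bcl3*, another gene that STAT3 activates, was 1.26 higher there (adjusted p = 0.0481, limma). Both of these conditions lie on slide 2. At 90/5 2 hr the call of *Bcl3* was lost in 16 and that of *Cebpb* in 11 of 30 fits without a sample or an array, and that of *Lifr* without array 1. Other settings ended that of *Bcl3* in 9 of 15 cases and that of *Cebpb* in 6 of 14, and centring on medians alone left *Irf1* at 0.82 (adjusted p = 0.0598). The methods' t-test after adjustment ended the calls of *Lifr* at 90/5 2 hr (0.0558) and of *Cebpb* at 18/1 5 hr (0.0582).

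**Figure D5:**
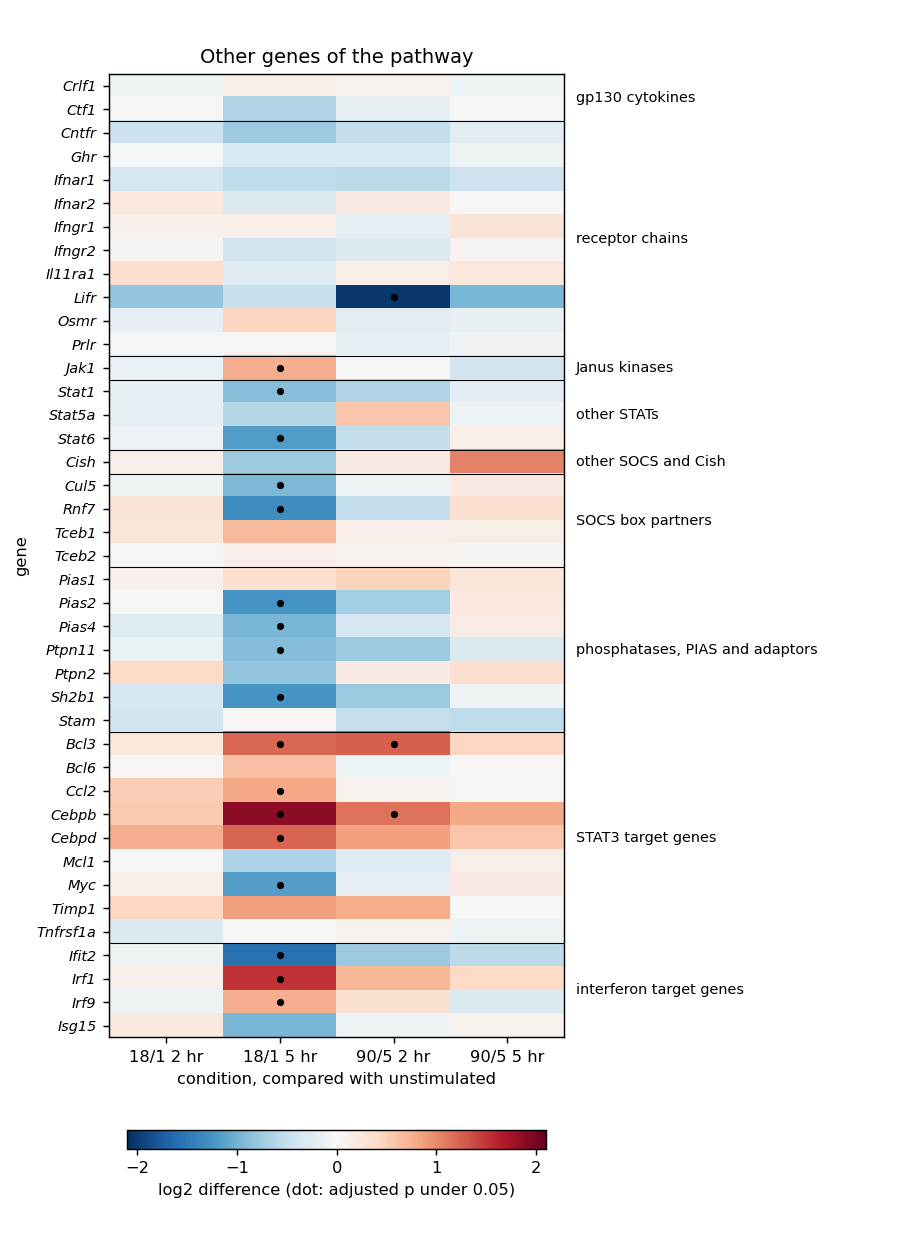
Log2 difference from unstimulated neurons of the 41 other pathway genes that passed the filter, by list and condition, with blue for lower, red for higher and a dot for an adjusted p under 0.05. Of the dots, 17 are at 18/1 5 hr and 3 at 90/5 2 hr.

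The genes most like *Socs3* by the Pearson correlation of log2 signals over the 20 samples were *Fam46a* (0.89), *Nr4a1* (0.89) and *Dot1l* (0.89). Over the 12 samples of slides 1 and 3 they were *Mapkapk3* (0.95), *Nr4a1* (0.94) and *Egr1* (0.94), so that *Nr4a1*, an orphan nuclear receptor and rapid response gene, was on both lists. Among the genes most like *Stat3* were *Abca7* (0.96) and *Tab1* (0.95) over the 20 samples, and *Kcna6* (0.97), *Men1* (0.96) and *Slc7a4* (0.96) over slides 1 and 3. Without replicate 3 of 90/5 5 hr, the first 3 genes for *Socs3* over slides 1 and 3 remained *Mapkapk3* (0.98), *Nr4a1* (0.95) and *Egr1* (0.95), while *Kcna6*, *Men1* and *Slc7a4* moved to ranks 6, 14 and 32 for *Stat3*. Over all samples but replicate 3, *Dot1l*, *Fam46a* and *Rgs2* came first for *Socs3*, and *Nr4a1* had rank 4 (0.89). *Mapkapk3* and *Egr1* had ranks 702 (0.58) and 791 (0.57) there. For *Stat3* the same samples gave 0.67 for *Kcna6*, -0.58 for *Men1* and 0.34 for *Slc7a4*, with *Abca7* at 0.96 and *Tab1* at 0.94. Over slides 1 and 3 without replicate 3, *Abca7* was at 0.84 (rank 200) and *Tab1* at 0.42 (rank 2916). The samples share arrays and slides, and these values describe the samples only.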

How the data were processed

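The authors deposited, per array, the scanner output of Agilent Feature Extraction (10.7.1.1 for slide 1, 10.7.3.1 for slides 2 and 3, per the file headers), with the intensity of each spot and of its background in each colour, not normalized. Other values given with them by the authors are the software's own marks for saturated, non-uniform and dim spots. Probe positions in the files are mm9, and 35 further columns per colour were not used.

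Intensities of the 20 samples on 10 arrays were background corrected (normexp, offset 50), normalized by loess within and Aquantile between arrays, and put on the log2 scale, with control spots at weight 0 in the loess. Spots at least 2 times their background and not non-uniform in all 20 samples were kept, and the brightest probe of a gene name was tested by limma 3.58.1 in R 4.3.3, with condition, colour, and array as a random block (correlation 0.529). p-values were adjusted by Benjamini-Hochberg within each of 11 comparisons at 0.05. The code was tested on simulated data: for 90/5 5 hr against unstimulated neurons (10355 genes, 200 changed), 0% of changes of 1.4-fold were called, 43% of 2-fold and 94% of 4-fold. The number of arrays limits the precision.

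The 9 genes and all lists were chosen with earlier results of these data known. All 9 were named, and of the pathway lists the 3 called genes with the largest difference per comparison. Most similar genes were taken for genes called in at least 2 stimulated conditions. One of the similar genes is not reported here. Background correction, normalization, filters, probe choice, blocks, samples, the fold limit and the methods' t-test were varied. For 18/1 5 hr and 90/5 2 hr the labels do not settle which colour is which replicate, so samples are given by array and colour. Motifs were searched with Python 3.11.15 in RefSeq promoters.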

Additional observations from a re-analysis of the deposited data

Results flagged for a closer look

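In *Stat5b*, 1 of the 4 samples at 18/1 2 hr, replicate 2, lay at 10.698 and apart from the other 3, which read 9.82 to 9.95. It was the only such sample among 45 groups of a gene and a condition, where chance gives about 1 in 20. Replicate 3 of 90/5 5 hr came just short of the same limit in *Socs1*, where it read 9.23 and the next sample 8.62.

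The change from 2 hr to 5 hr differed between the stimulus patterns for *Socs5*, by -2.34 on the log2 scale (standard error 0.46, adjusted p = 0.000388, limma), and for *Stat3*, by 2.82 (standard error 0.52, adjusted p = 0.000235, limma). The 8 samples of slide 2 enter this difference with 1 sign and the 8 other stimulated samples with the opposite sign, so pattern by time and slide cannot be told apart.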

How the results depend on the processing

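Under the other settings, the 4 genes called in any comparison gave 306 values. Direction and call, or the lack of a call, were kept in 258, while 41 lost the call, 7 gained it and 0 changed direction. The 258 include values that were never called: 15 of 18 for *Socs3* and 17 of 18 for *Stat2* at 18/1 2 hr. For *Stat2* they also include 12 of 15 at 90/5 2 hr and 17 of 17 at 90/5 5 hr. In 87 values of the pathway genes named, 69 kept the call, 18 lost it and 0 changed direction. Counts of the 9 genes called that moved by over 1.5 times are as follows, and the cause was not tested. The share of all genes called in the same fit is in brackets. At 18/1 2 hr the count was 1 in a fit of slide 1 alone, which is that of the compared conditions (0.135%), and 2 by the methods' t-test (2.08%). At 18/1 5 hr it was 2 by the methods' t-test after adjustment (39.1%). At 90/5 2 hr it was 1 with the scanner's processed signals (7.15%), without the spot filter (1.67%) and by the adjusted t-test (0.724%), and 4 by the methods' t-test (20.6%). At 90/5 5 hr it was 0 without the filter (0.0563%), with means of arrays (0.0193%) and by the adjusted t-test (0.135%), and 2 without slide 2 (2.63%) and by the methods' t-test (5.58%). Between the patterns at 2 hr it was 1 without the colour term (5.01%), with the compared conditions alone (3.51%) and by the methods' t-test (16.9%), and 2 without the array block (17.7%). At 5 hr it was 4 when centred on medians (57.6%) or without the array block (59.9%), and 0 by the adjusted t-test (28.4%). Between the times of 18/1 it was 1 when centred on medians (53.0%) or with the processed signals (41.7%), and 5 without the array block (59.1%). Between the times of 90/5 it was 1 when centred on medians (8.37%), with the filter within a condition (7.9%) and without saturated probes (6.5%). It was also 1 with means of arrays (3.0%) and by the methods' t-test (17.1%). It was 0 with the processed signals (8.71%), without the filter (3.0%), with the compared conditions alone (3.39%) and by the adjusted t-test (0.241%). Between 90/5 2 hr and 18/1 5 hr it was 1 when centred on medians (46.9%). Smaller moves were to 3 at 18/1 5 hr under 5 settings, centring on medians among them. With the filter within a condition or none, *Socs5* and *Stat2* both lost the call there. The 3 then include a gene not among the 4 called with the filter in all 20 samples. At 90/5 2 hr the count was 3 without the array block or with the compared conditions alone (*Stat2* was called, adjusted p = 0.00440 and 0.0185, limma). It was 3 between patterns at 5 hr and for pattern by time with the filter within a condition or none. Between the times of 18/1 it was 2 without the filter and 4 by the methods' t-test.

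Leaving out 1 sample or array at a time, the counts were 0 to 0 at 18/1 2 hr, 2 to 4 at 18/1 5 hr, 0 to 4 at 90/5 2 hr, 0 to 1 at 90/5 5 hr, 0 to 2 between patterns at 2 hr and 2 to 4 at 5 hr, 1 to 4 between times of 18/1 and 0 to 2 of 90/5, 0 to 3 between the conditions of slide 2, 0 to 0 between 90/5 5 hr and 18/1 2 hr, and 2 to 4 for pattern by time.

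Samples of the same replicate number correlated by -0.05 to 0.72 in their deviations, over 0.1 in 9 of 12 pairs. Between unstimulated and 18/1 2 hr samples all 4 pairs were over 0.1, at 0.41 to 0.72, and for 90/5 5 hr some were not. The replicate block was used only for comparisons off slide 2, where the labels settle the replicate numbers. With it, 0 of the 9 genes were called at 18/1 2 hr, among 7 genes in all against 2 in the fit of all 20 samples. At 90/5 5 hr 2 of the 9 genes, *Socs3* and *Socs5*, were called, among 378 genes in all. Leaving slide 2 out without the block called 272 genes there, so these moves are not put down to the block alone.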
